A study of Mus musculus with 30 samples.

Results

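The mRNAs of 9 secreted factors, Il6, Lif, Il11, Csf1, Csf2, Csf3, Tslp, Tnf and Spp1, were followed in mouse embryonic fibroblasts (MEFs) under stress. They were chosen by gene name among 21689 genes named on a 2-colour Agilent array, and each was read by 1 probe. Immortalised, exponentially growing MEFs, either wild type (WT) or lacking the MAP kinase p38α (p38α-/-, KO), were measured on 30 arrays in 15 groups of 2. WT MEFs received anisomycin (25 ng/ml, 45 min), an inhibitor of protein synthesis that activates stress kinases, the cytokine TNFα (100 ng/ml, 45 min), or osmostress by NaCl (100 mM) for 45 min, 2 h or 8 h. The same 5 treatments, and an unstressed group, were repeated in WT MEFs with SB203580, a chemical inhibitor of p38α and p38β. The protocol gives SB203580 as 10 µM from 30 min before the stress, whereas the sample titles give 10 mM and 2 h. KO MEFs were left untreated or received anisomycin for 45 min, TNFα for 45 min or NaCl for 2 h, at the same doses. Each treated RNA was labelled with Cy5 and hybridised against 1 Cy3-labelled pool of 2 untreated WT cultures, without a dye swap. The labels do not say whether the WT and KO MEFs were single clones or lines from littermates. The study describes 2 independent experiments per condition, and the p-values measure the spread between these pairs of arrays.

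IL-6, LIF and IL-11 are cytokines of the family that signals through the shared receptor chain gp130 to JAK kinases and STAT3. The colony stimulating factors M-CSF (Csf1), GM-CSF (Csf2) and G-CSF (Csf3) drive the growth and maturation of macrophages and granulocytes. TSLP is an alarm cytokine that acts on dendritic and lymphoid cells, TNF is the cytokine that engages NF-kappaB through its receptors, and Spp1 encodes osteopontin, a secreted matrix protein that binds integrins and CD44. Fibroblasts are a known source of several of these factors, and p38 signalling is known to stabilise cytokine mRNAs with AU-rich elements.

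The promoters of 4 members are shown because their genes behaved differently in the data: Csf1 rose under TNFα, Spp1 was highest after 8 h of NaCl, and Il6 and Tnf are textbook stress cytokines that were called higher than the pool in none of the groups tested. Tnf had no test in WT MEFs with TNFα, where a spot was flagged as an outlier. The RefSeq table (build GRCm38.p6) held a promoter, 250 bases before to 50 after the start site, for 7 of the 9 members. Each sequence is printed 5′ to 3′ along the gene, and capitals mark matches on either strand to an NF-kappaB motif (GGGA, any base, TT, any base and CC), an AP-1 motif (TGANTCA), a CRE motif (TGACGTNA) or a TATA motif (TATAAA).
Csf1 (chr3:107760420-107760719, minus strand): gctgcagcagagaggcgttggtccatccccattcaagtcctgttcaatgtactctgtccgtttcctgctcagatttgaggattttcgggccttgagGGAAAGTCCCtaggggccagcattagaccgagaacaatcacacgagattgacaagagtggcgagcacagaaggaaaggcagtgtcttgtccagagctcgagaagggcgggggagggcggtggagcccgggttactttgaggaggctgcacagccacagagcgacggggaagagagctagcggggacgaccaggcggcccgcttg
Il6 (chr5:30012864-30013163, plus strand): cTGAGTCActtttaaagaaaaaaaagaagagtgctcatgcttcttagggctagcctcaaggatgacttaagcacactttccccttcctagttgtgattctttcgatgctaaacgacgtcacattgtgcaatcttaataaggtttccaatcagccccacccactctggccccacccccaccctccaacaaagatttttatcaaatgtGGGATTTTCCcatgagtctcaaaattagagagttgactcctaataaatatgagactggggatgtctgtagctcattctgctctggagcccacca
Tnf (chr17:35201958-35202257, minus strand): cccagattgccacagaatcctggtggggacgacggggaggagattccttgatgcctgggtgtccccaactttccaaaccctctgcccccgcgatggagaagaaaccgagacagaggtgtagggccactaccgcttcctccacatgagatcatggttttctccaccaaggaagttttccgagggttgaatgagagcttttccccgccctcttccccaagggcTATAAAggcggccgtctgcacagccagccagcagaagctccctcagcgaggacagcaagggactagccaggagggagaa
Spp1 (chr5:104434861-104435160, plus strand): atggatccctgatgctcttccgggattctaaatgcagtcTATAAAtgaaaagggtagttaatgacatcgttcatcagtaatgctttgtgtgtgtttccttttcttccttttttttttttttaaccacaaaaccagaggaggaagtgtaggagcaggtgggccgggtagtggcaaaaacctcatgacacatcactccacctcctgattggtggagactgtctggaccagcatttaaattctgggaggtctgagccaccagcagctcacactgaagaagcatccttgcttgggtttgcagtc

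The NF-kappaB letters began 154 bases before the start site of Csf1, on the minus strand of the printed sequence, and 44 bases before that of Il6. Of all 32851 promoters in the table, 1.20% held this motif. An AP-1 match stood 249 bases before the start site of Il6, and others lay in the promoters of Lif and Il11, against 7.81% of all promoters. TATA letters began 29 bases before the start site of Tnf and 211 bases before the first listed start site of Spp1, against 13.6% of all promoters. No CRE match was found in the member promoters, against 2.93% of all. The promoter of Csf2 held none of these letters. These matches describe the sequence in this window and do not show that a factor bound there.

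Every value below is a log2 ratio of treated MEFs to the untreated WT pool, where 0 means equal signal and 1 a doubling. A gene was called when the limma p-value, adjusted over all genes measured on both arrays of the groups compared, was below 0.05. Because no untreated WT culture was hybridised against the pool, a constant dye or pool offset of a probe and a response to stress cannot be told apart in a ratio to the pool. Differences between groups do not carry such an offset. The offset matters for Tslp and Spp1, which were above the pool on all 30 arrays, also with SB203580 alone. Conversely, Tnf, Lif, Il6 and Csf3 were above the pool on only 2, 2, 5 and 5 of 30 arrays, counting spots flagged as outliers. Their calls below the pool carry the same limit. Replicate numbers paired the arrays within a genotype, so the adjusted p with the replicate number as a block is given where it changes a call. In WT MEFs the first and second arrays were scanned on separate days, so the block cannot be told apart from scanning day.

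Outlier spots, which were left out, made up 6.78 to 44.8% of an array, and 81.1 to 96.8% of probes were well above background in Cy5. Mapk14, the gene of p38α, lay between 0.05 and 1.31 on the 16 WT arrays that measured it and between -2.24 and -0.94 on the 6 KO arrays that did. All 10 fibroblast markers, such as Col1a1 and Vim, exceeded the 95th percentile of negative control spots on every array, but so did all 22 markers of macrophages, lymphocytes, endothelium and epithelium, so this measure did not separate cell types. Csf1, Tslp, Spp1, Lif, Il11 and Tnf were well above background on all 30 arrays in both channels. Il6, Csf2 and Csf3 were dimmer and well above background in Cy5 on 28, 26 and 29 arrays, and Il6 did not exceed the negative controls in Cy5 on 2 arrays. No member spot was saturated.

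**Figure D1:**
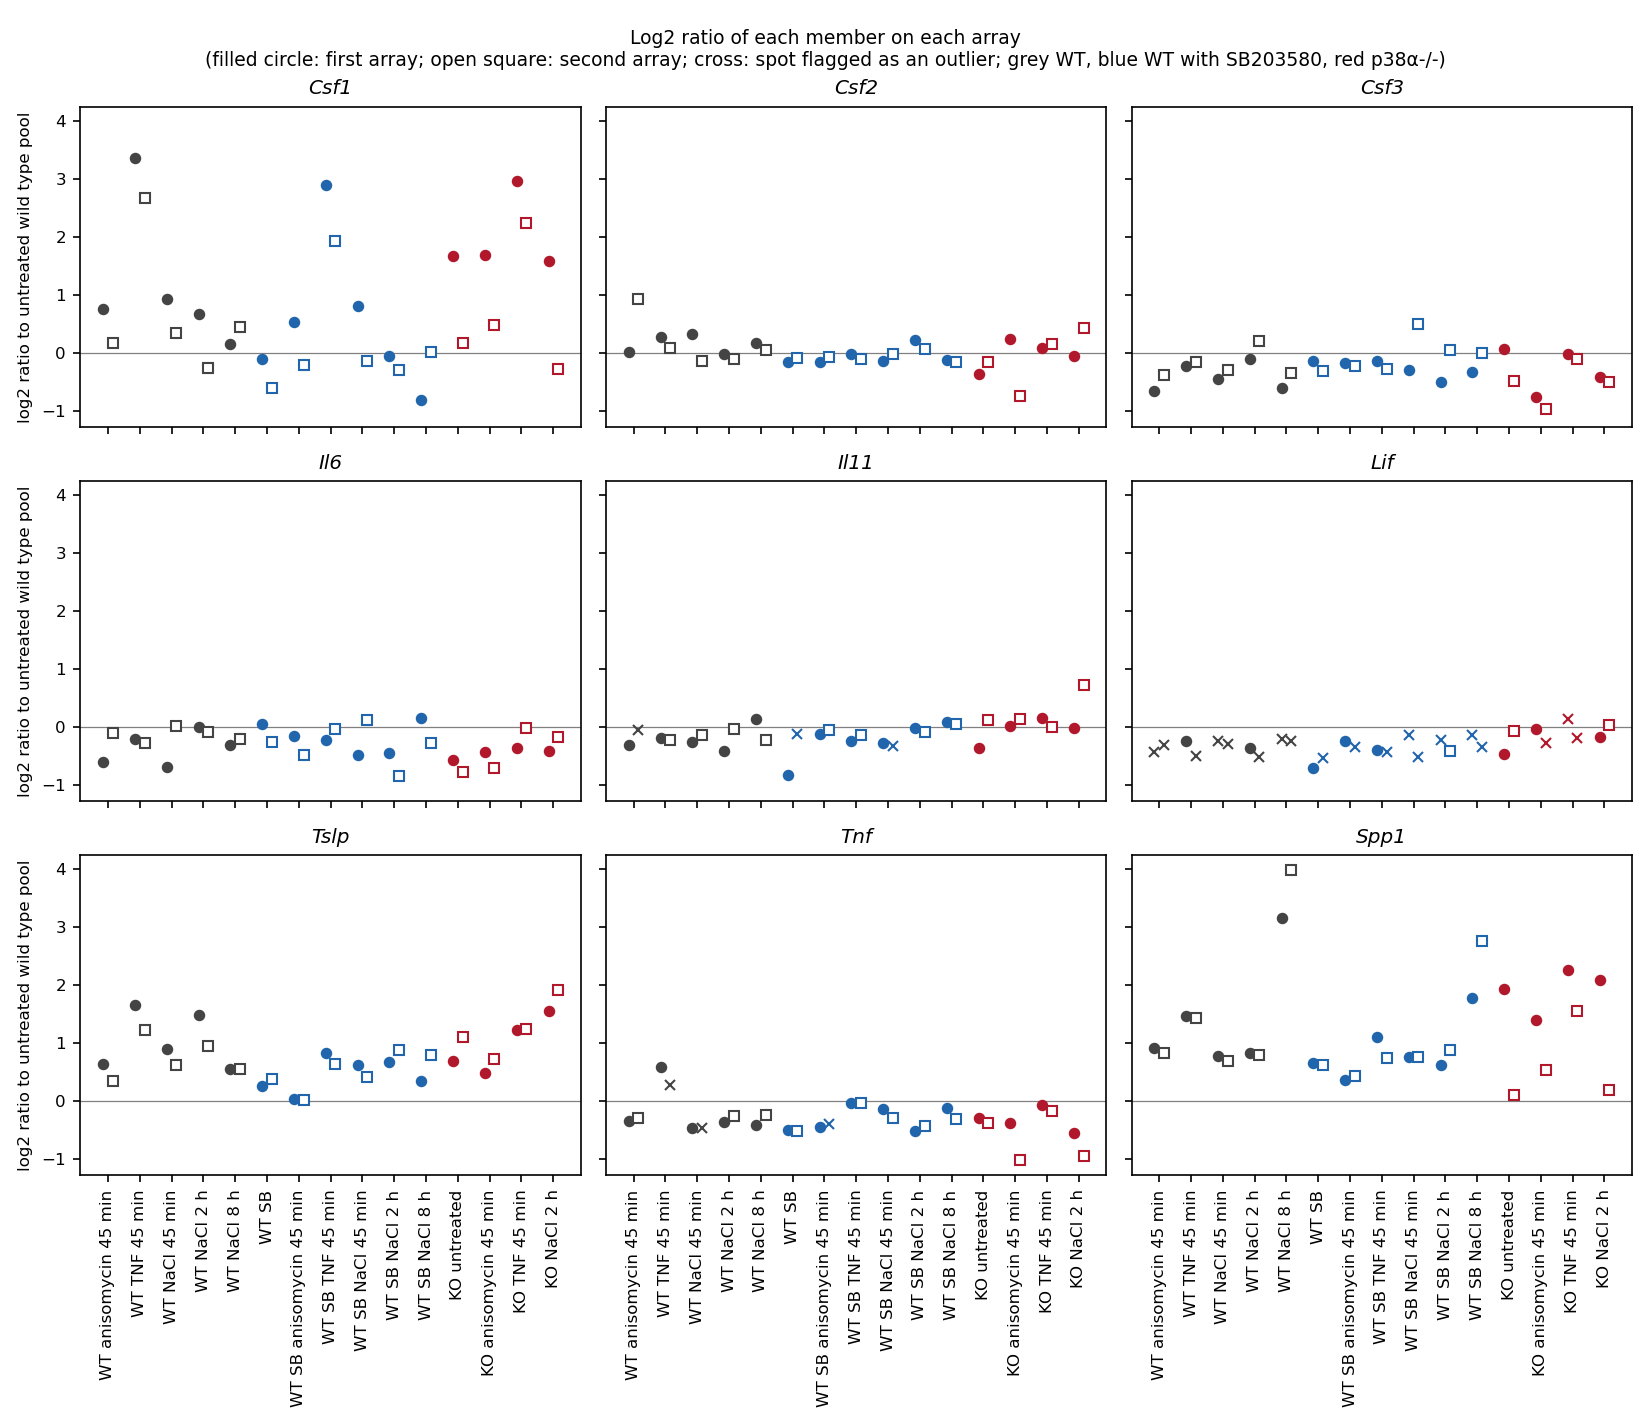
Log2 ratio to the untreated WT pool (vertical axis) of each member on each of 30 arrays (horizontal axis, 15 groups), with filled circles for first arrays, open squares for second arrays and crosses for spots flagged as outliers. Csf1 stands apart in the 3 TNFα groups, between 1.94 and 3.37. Spp1 stands apart at 8 h of NaCl without SB203580, at 3.16 and 3.99. With SB203580 its 8 h arrays (1.79 and 2.77) overlap with first KO arrays, which reach 2.26. Tslp lies above 0 throughout.

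The members that stood above the pool in stressed WT MEFs were Csf1, Tslp and Spp1. In the 5 WT stress groups without SB203580, 8 of 37 member tests were called higher and 1 lower, where 6.44% of all gene tests were called higher and 6.63% lower. With the block these were 11 and 4, beside 10.9% and 9.76%. TNFα accounted for 3 of 7 members tested (Csf1, Tslp and Spp1), beside 5.25% of all genes, and a mean of 2.5-fold or more, the threshold of the study, was met by the same 3, beside 0.533% of genes. Anisomycin gave 1 of 7 (5.72% of genes), NaCl for 45 min 1 of 7 (4.69%), NaCl for 2 h 1 of 8 (5.24%) and NaCl for 8 h 2 of 8 higher (11%) and 1 lower (11.2%). Tslp was the member called in all 5. The median over the members tested was 0.47 with anisomycin, 0.18 with TNFα, 0.10 at 45 min of NaCl, 0.01 at 2 h and 0.04 at 8 h, beside medians of 0.00 to 0.01 over all genes. These medians do not cover the same members and cannot rank the stresses. Lif had no test in these groups, Il11 none with anisomycin, and Tnf none with TNFα or 45 min of NaCl. With flagged spots kept, Lif and Il11 read -0.36 and -0.17 with anisomycin, and Tnf 0.44 with TNFα. Over all 15 groups 21 of 116 member tests were called higher and 9 lower, beside 7.56% and 7.17% of gene tests, and with the block 32 and 14, beside 11.7% and 10.2%. Between stresses or times in WT MEFs, 1 of 34 member tests was called, Spp1 at 8 h over 2 h (1.95% of all gene tests), and 5 with the block (2.84%).

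Csf1 was the member with the strongest response to TNFα. In WT MEFs with TNFα the 2 arrays gave 3.37 and 2.67, a mean of 3.02 ± 0.49 (SD, n = 2), which is 8.11-fold over the pool (adjusted p = 0.000282). Both arrays lay above every other WT array without TNFα, of which the highest was 0.94. The other stresses gave 0.77 and 0.17 with anisomycin, 0.94 and 0.34 with NaCl for 45 min, 0.67 and -0.26 at 2 h, and 0.16 and 0.45 at 8 h, and none of these means was called. Set directly against anisomycin at the same 45 min, TNFα was 2.55 higher (95% interval 1.27 to 3.83, adjusted p = 0.189, and 0.00134 with the replicate block). Against NaCl for 45 min it was 2.38 higher (adjusted p = 0.193, and 0.00327 with the block). The first array exceeded the second in 9 of 11 WT groups, by a median of 0.60, which the block takes up.

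Csf1 also stood above the pool with TNFα where p38 was inhibited or absent, though the change within those arms was not called without the block. With SB203580 the arrays read 2.90 and 1.94 (mean 2.42 ± 0.68 SD, n = 2, adjusted p = 0.00261), and in KO MEFs 2.96 and 2.25 (mean 2.61 ± 0.50, adjusted p = 0.00114). The 3 TNFα groups overlapped. Without the first array of each, neither call held (1.94 with adjusted p = 0.166, and 2.25 with adjusted p = 0.107), and with the KO arrays fitted alone the KO value had an adjusted p of 0.0879. SB203580 lowered the mean by 0.60, with a 95% interval of the difference from -1.88 to 0.68 (adjusted p = 1), and KO MEFs were 0.41 lower than WT, with an interval from -1.69 to 0.86 (adjusted p = 0.932). These intervals come from the fit without the block. They are wide enough to hold a loss of more than 2.5-fold as well as a gain, so a dependence on p38α was not resolved. With SB203580 both pairs of arrays read lower (-0.47 and -0.73), and this difference was not called with the block either. Within the inhibitor arm, TNFα with SB203580 exceeded SB203580 alone (-0.11 and -0.59) by 2.77 (adjusted p = 0.154, and 0.000783 with the block). Within KO MEFs, TNFα exceeded the untreated group by 1.68 (1.29 and 2.07 in the pairs), which was not called (adjusted p = 1, and 0.129 with the block).

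Csf1 was unstable between the 2 arrays of each KO group. Untreated KO MEFs read 1.67 and 0.18, KO MEFs with anisomycin 1.69 and 0.49, and KO MEFs with NaCl 1.60 and -0.28. The means of the first of these groups (0.93, adjusted p = 0.161) and of the second (1.09, adjusted p = 0.108) were called only with the block (adjusted p = 0.0137 and 0.00608). The first array exceeded the second in all 4 KO groups, by 0.71 to 1.87. A mean first-minus-second difference of this size (1.32) was reached by 0.232% of the 15105 genes measured on all 8 KO arrays. Spp1 shared it, with 1.31. The first KO arrays were scanned on the same day as the second WT arrays and the second KO arrays on 2 later days, and the part of scanning day in this was not tested. No KO against WT difference of Csf1 was called. With scanning day as a term, added after the data were seen, KO exceeded WT under anisomycin by 1.61 (adjusted p = 0.0326, against 0.62 and 0.722 without it). On the single day that held both genotypes, 1 KO array exceeded 1 WT array by 1.52 with anisomycin, 0.29 with TNFα and 1.85 with NaCl.

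**Figure D2:**
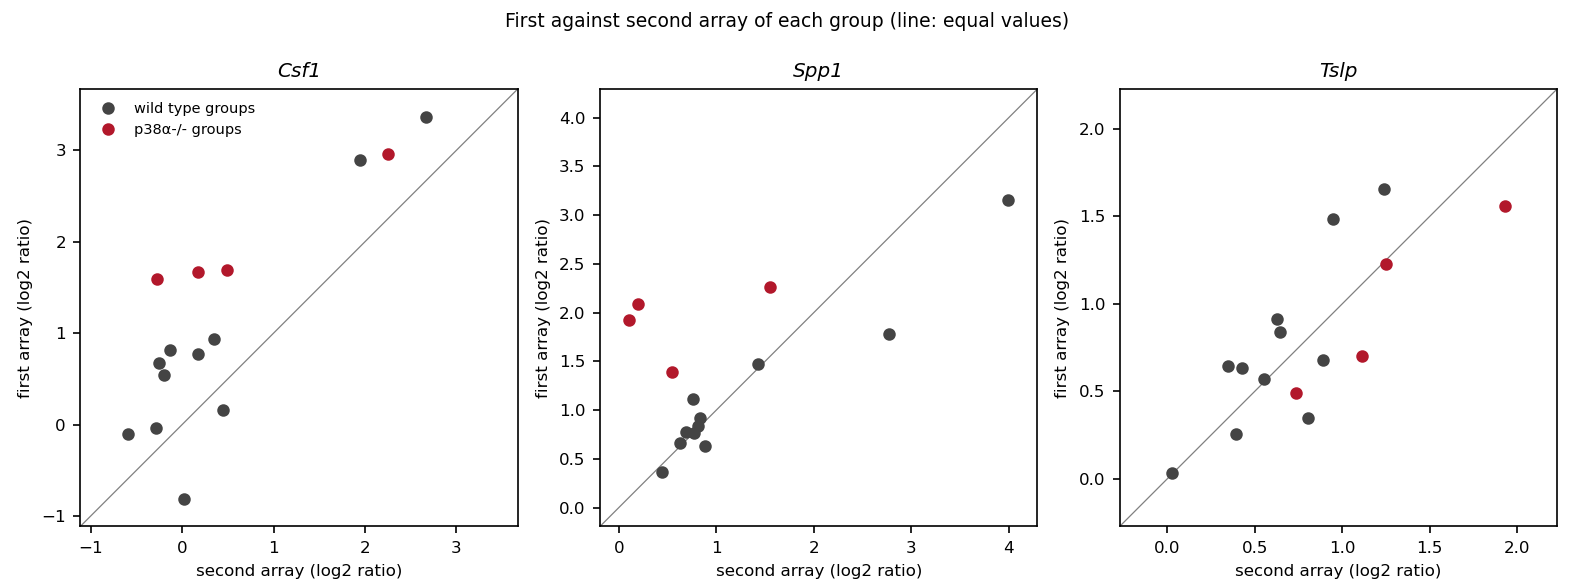
Log2 ratio on the first array (vertical axis) against the second array (horizontal axis) of each of 15 groups for Csf1, Spp1 and Tslp, with the line of equal values. All 4 KO groups lie above the line for Csf1 and Spp1 and below it for Tslp.

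The other colony stimulating factors were not called higher than the pool in any group. Csf2, which T cells and stromal cells make on activation, lay between -0.73 and 0.94 on the 30 arrays and was called in none of the 15 groups. Its highest value, 0.94, came from the second array with anisomycin, while the first read 0.02. That spot was not well above background in Cy5, nor was the lowest, -0.73, from the second KO array with anisomycin. Csf3 lay between -0.95 and 0.50. It was below the pool after 8 h of NaCl, at -0.60 and -0.34 (mean -0.47 ± 0.18, adjusted p = 0.0464), and in KO MEFs with anisomycin, at -0.76 and -0.95 (mean -0.85 ± 0.14, adjusted p = 0.00254). With the block it was also called lower in WT MEFs with anisomycin (-0.64 and -0.37, adjusted p = 0.0141, 0.0515 without) and in KO MEFs with NaCl (-0.41 and -0.50, adjusted p = 0.0212, 0.0639 without).

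None of the IL-6 family cytokines was called higher than the pool. Il6 read -0.20 and -0.27 with TNFα in WT MEFs, the treatment under which Csf1 rose, and was above 0 on 5 of 30 arrays. It was called lower in WT MEFs with SB203580 and NaCl for 2 h (-0.44 and -0.84, adjusted p = 0.0190), in untreated KO MEFs (-0.57 and -0.77, adjusted p = 0.0161) and in KO MEFs with anisomycin (-0.42 and -0.70, adjusted p = 0.0448). KO MEFs with TNFα read -0.36 and -0.01, and KO MEFs with NaCl -0.40 and -0.16. The Il6 spots of the second KO arrays with anisomycin (-0.70) and with NaCl (-0.16) were not well above background in Cy5. Il11, a cytokine of stromal cells, lay between -0.82 and 0.73 over the 27 arrays that measured it and was called in none of 12 groups tested. With flagged spots kept, Il11 was called lower with SB203580 alone (mean -0.46, adjusted p = 0.0280) and in no other group.

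Lif, which keeps mouse embryonic stem cells undifferentiated, gave a bright signal (2240 to 10237 in Cy5), but 19 of its 30 spots were flagged as outliers. Only untreated KO MEFs (-0.45 and -0.06) and KO MEFs with NaCl (-0.17 and 0.04) had both arrays, and neither was called. With flagged spots kept, Lif was below the pool on average in all 15 groups (-0.62 to -0.02) and called lower in 7, the lowest being SB203580 alone. In WT MEFs with TNFα the arrays then read -0.23 and -0.49 (adjusted p = 0.0248). Without an untreated WT array, this ratio cannot show whether TNFα changed Lif.

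Tslp was higher than the pool in every stress group of WT MEFs without SB203580, with the highest values under TNFα and after 2 h of NaCl. TNFα gave 1.66 and 1.24 (mean 1.45 ± 0.30 SD, n = 2, or 2.73-fold, adjusted p = 8.18e-06). NaCl gave 0.91 and 0.63 at 45 min (adjusted p = 0.00347), 1.48 and 0.95 at 2 h (mean 1.21 ± 0.38, adjusted p = 4.57e-05) and 0.57 and 0.55 at 8 h (adjusted p = 0.00968). Anisomycin gave 0.64 and 0.35 (adjusted p = 0.0345). SB203580 alone gave 0.26 and 0.39, which was not called (adjusted p = 0.108), so the smaller of these ratios lie near those of an unstressed group. The calls with anisomycin and at 8 h of NaCl did not hold without either array (adjusted p = 0.0737 to 0.511 and 0.105 to 0.106), nor the one at 45 min without the first (adjusted p = 0.140). With SB203580, Tslp was also called above the pool under TNFα (0.74) and at 45 min (0.53), 2 h (0.78) and 8 h of NaCl (0.58), but not with anisomycin (0.03). The call under TNFα with SB203580 did not hold without either array, which left 0.65 or 0.84. TNFα exceeded anisomycin by 0.95 (adjusted p = 0.0904, and 0.0324 with the block), and 8 h of NaCl was 0.66 below 2 h (adjusted p = 0.0613, and 0.0295 with the block).

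In untreated KO MEFs Tslp read 0.70 and 1.12 (mean 0.91 ± 0.29, adjusted p = 0.000619). It was highest of all groups in KO MEFs with NaCl for 2 h, at 1.56 and 1.93 (mean 1.74 ± 0.26, adjusted p = 6.05e-07). Over untreated KO MEFs, NaCl raised it by 0.83, with 0.86 and 0.81 in the pairs (adjusted p = 0.0626, and 0.0231 with the block). KO MEFs with TNFα read 1.23 and 1.25, which was 0.33 over untreated KO MEFs (interval -0.10 to 0.77, adjusted p = 1). Against WT MEFs under the same stress, KO MEFs differed by 0.53 with NaCl (interval 0.09 to 0.96, adjusted p = 0.321), by -0.21 with TNFα and by 0.12 with anisomycin, and none was called.

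Tnf, the gene of the cytokine that was itself added, was at or below the pool except under TNFα in WT MEFs. There the first array read 0.60 and the second 0.29, the second being a flagged spot, so the group had no test. With flagged spots kept its mean was 0.44 (adjusted p = 0.0103), the only group called higher for Tnf, while 8 groups were called lower. Tnf under TNFα then exceeded NaCl for 45 min by 0.90 (adjusted p = 0.0178) and anisomycin by 0.75 (adjusted p = 0.0837). All other measured arrays lay between -1.02 and -0.02. TNFα with SB203580 read -0.03 and -0.02, and KO MEFs with TNFα -0.06 and -0.17, both higher than the other groups of their arm, though not called against the pool. With flagged spots left out, no call below the pool of Tnf, Il6 or Csf3 given here held in every setting with 1 array of its group left out. Tnf was called lower in WT MEFs with SB203580 alone (-0.49 and -0.50, adjusted p = 0.00843) and with SB203580 and NaCl for 2 h (-0.51 and -0.42, adjusted p = 0.0182). In KO MEFs it was called lower with anisomycin (-0.38 and -1.02, adjusted p = 0.00202) and with NaCl (-0.54 and -0.95, adjusted p = 0.000843). With the block, it was also called lower in WT MEFs with anisomycin (adjusted p = 0.0388), with NaCl for 8 h (adjusted p = 0.0222) and in untreated KO MEFs (adjusted p = 0.0273).

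Spp1 had the largest ratio of all members, and it came late in osmostress. After 8 h of NaCl WT MEFs read 3.16 and 3.99 (mean 3.58 ± 0.59 SD, n = 2, or 11.9-fold, adjusted p = 2.63e-06). At 45 min it was 0.77 and 0.69 and at 2 h 0.84 and 0.81. The step from 2 h to 8 h was 2.75 (2.32 and 3.19 in the pairs), or 6.74-fold (adjusted p = 0.00304), and 8 h did not overlap with any other WT group without SB203580. TNFα gave 1.48 and 1.43 (mean 1.45 ± 0.03, adjusted p = 0.0183, and 0.170 or 0.200 without the first or the second) and anisomycin 0.92 and 0.83. SB203580 alone read 0.67 and 0.62, near the values of 45 min and 2 h of NaCl. With the replicate block Spp1 was also called against the pool in WT MEFs with anisomycin (adjusted p = 0.00889), NaCl for 45 min (adjusted p = 0.0237) and 2 h (adjusted p = 0.0150), and with SB203580 alone (adjusted p = 0.0265). The same held for SB203580 with TNFα (1.11 and 0.76, adjusted p = 0.00862), with NaCl for 45 min (0.77 and 0.77, adjusted p = 0.0155) and with NaCl for 2 h (0.63 and 0.88, adjusted p = 0.0174).

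With SB203580 and 8 h of NaCl, Spp1 read 1.79 and 2.77 (mean 2.28 ± 0.70, adjusted p = 0.000334), below both arrays without the inhibitor. The difference was -1.30 (-1.37 and -1.22 in the pairs), which is 2.46-fold lower, with an interval from -2.41 to -0.19 (adjusted p = 0.799, and 0.0694 with the block), so it was not called. Over SB203580 alone, 8 h of NaCl with the inhibitor was 1.63 higher (adjusted p = 0.0689, and 0.00195 with the block). Spp1 in KO MEFs read 1.93 and 0.11 untreated, 1.40 and 0.55 with anisomycin, 2.26 and 1.55 with TNFα, and 2.08 and 0.20 with NaCl for 2 h. It was called with TNFα (adjusted p = 0.00424) and with NaCl (adjusted p = 0.0419), and with the block also in untreated KO MEFs (adjusted p = 0.00309) and with anisomycin (adjusted p = 0.00492), but each first KO array exceeded the second. Without the first array the NaCl group read 0.20 (adjusted p = 0.860) and the TNFα group 1.55 (adjusted p = 0.237). KO MEFs were not measured at 8 h of NaCl.

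**Figure D3:**
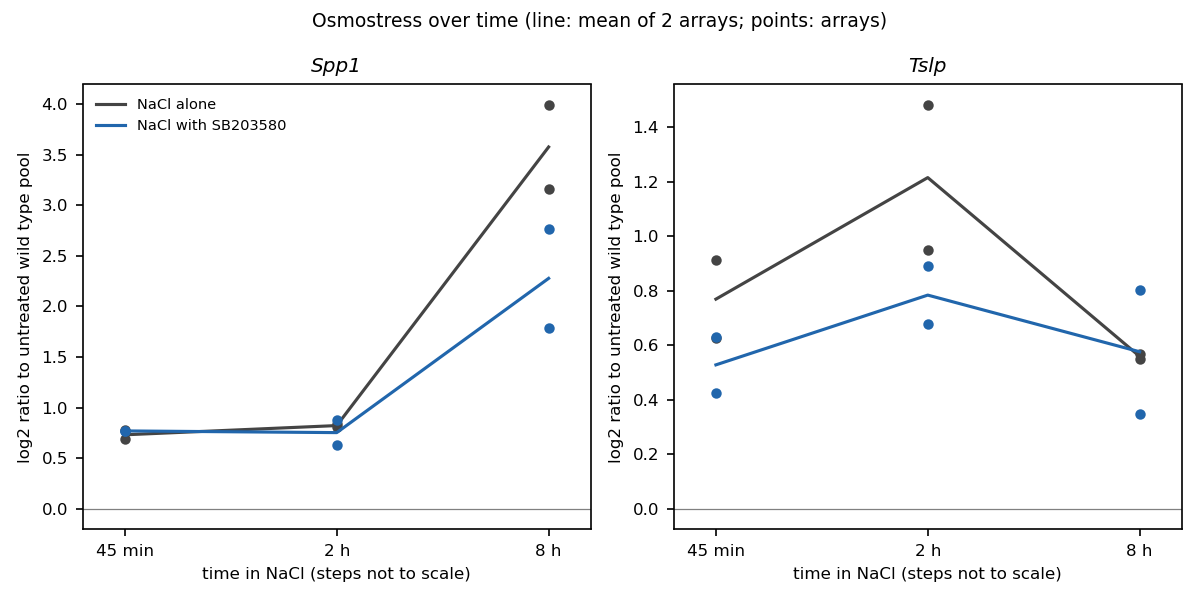
Log2 ratio to the untreated WT pool (vertical axis) of Spp1 and Tslp in WT MEFs after 45 min, 2 h and 8 h of NaCl (horizontal axis, not to scale), alone in grey and with SB203580 in blue, with points for arrays and lines through means of 2. Spp1 rises between 2 h and 8 h to 3.58 alone and 2.28 with SB203580, and Tslp alone goes from 1.21 at 2 h to 0.56 at 8 h.

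The design asks whether the inhibitor, or the loss of p38α, changed the levels under stress. For SB203580 with stress against stress alone, 0 of 35 member tests were called by limma, with or without the block, 5 having an unadjusted p under 0.05 (2.9% of all gene tests did), and 0.0465% of all gene tests were called (0.134% with the block). Among the 5 was Csf2 with anisomycin (-0.59, -0.16 and -1.01 in the pairs), whose second WT spot was not well above background in Cy5. The others were Il6 with NaCl for 2 h (-0.61), Spp1 with NaCl for 8 h (-1.30) and 2 of Tslp. These were Tslp under TNFα, at 0.84 and 0.65 with SB203580 and thus 0.70 lower (interval -1.14 to -0.27, adjusted p = 1), and Tslp under anisomycin, at 0.04 and 0.03 and thus 0.46 lower (interval -0.90 to -0.03, adjusted p = 1). With NaCl for 2 h Tslp read 0.68 and 0.89, which was 0.43 lower (interval -0.87 to 0.00, adjusted p = 1), and at 8 h the pairs went both ways (-0.22 and 0.25). For KO against WT MEFs, 0 of 22 member tests were called with or without the block, 6 having an unadjusted p under 0.05 (10.7% of all gene tests did), beside 0.8% of all gene tests (2.48% with the block). The 6 were Csf2 and Tnf with anisomycin (-0.73 and -0.39) and Il11, Csf3, Tslp and Tnf with NaCl (0.58, -0.51, 0.53 and -0.44). That of Csf2 rests on 2 dim spots, the second with anisomycin in each genotype. Of stress against the unstressed group of the same arm, 0 of 59 were called without the block (1.47% of gene tests), 10 having an unadjusted p under 0.05 (8.63% of gene tests did), and 3 with it, beside 2.32% of gene tests. These were Csf1 with SB203580 and TNFα, Spp1 with SB203580 and 8 h of NaCl, and Tslp in KO MEFs with NaCl. Of differences in induction between an arm and WT MEFs, 0 of 54 were called (0.536% of gene tests), 11 having an unadjusted p under 0.05 (15.5% of gene tests did), and 3 with the block (2.91%).

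**Figure D4:**
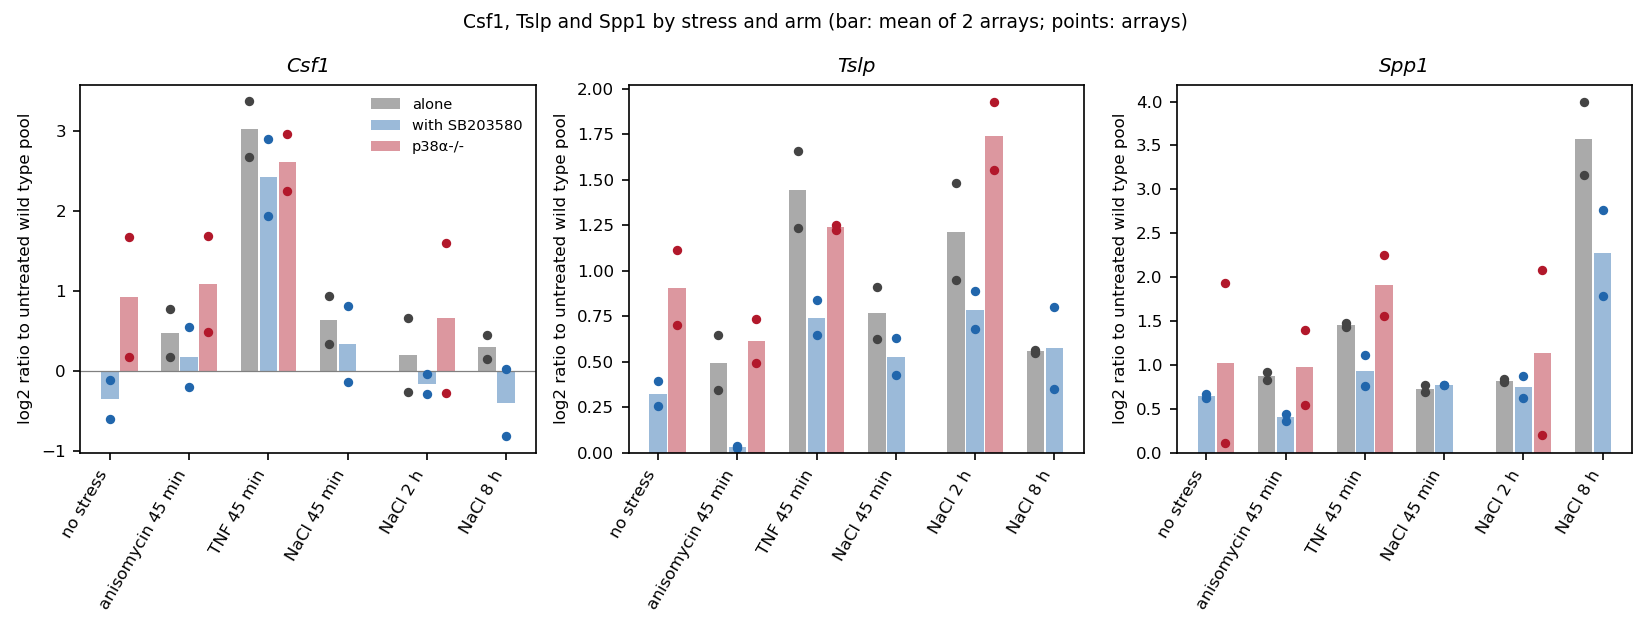
Log2 ratio to the untreated WT pool (vertical axis) of Csf1, Tslp and Spp1 by stress (horizontal axis) in WT MEFs (grey), WT MEFs with SB203580 (blue) and KO MEFs (red), where bars are means of 2 arrays and points are arrays. Csf1 with TNFα averages 3.02, 2.42 and 2.61 in the 3 arms, and the paired points show how far the KO arrays lie apart.

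The receptors and signalling genes of these factors were checked by lists of 64 genes, of which 59 were on the array under their listed name and 5 under an older one, Csf2rb and Csf2rb1 read under the same name. Among other IL-6 family ligands, 2 to 6 were tested in each WT stress group. None was called higher, where 4.69% to 11% of all genes were, and with so few tests this cannot be told from that share. Cntf was called lower with TNFα (-0.38 and -0.65, adjusted p = 0.0286) and with NaCl for 2 h (adjusted p = 0.0266). Of 12 related cytokines tested at 8 h of NaCl, 2 were called higher, near the 11% of all genes called there. They were Kitl, the ligand of the receptor Kit (0.82 and 0.48, adjusted p = 0.00285), and Il34, the other ligand of the M-CSF receptor (0.70 and 0.71, adjusted p = 0.000796). Il7, named after its values were seen, was higher after 45 min of NaCl (0.46 and 0.56, adjusted p = 0.0248), as 1 of 8 tested (4.69% of all genes). Epo was lower with TNFα (-0.73 and -1.06, adjusted p = 0.0464).

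Of 10 receptors tested at 8 h of NaCl, 2 were called higher and 1 lower, near the 11% and 11.2% of all genes called there. Cd44, a receptor of osteopontin, was higher (1.02 and 0.80, adjusted p = 0.00154), as was Lifr, named after its values were seen (0.34 and 0.57, adjusted p = 0.00154), while Il11ra1, the receptor of IL-11, was lower (-1.71 and -1.29, adjusted p = 3.15e-05). Il6ra was lower with TNFα (-0.44 and -0.67, adjusted p = 0.0145). No receptor was called higher with TNFα among 12 tested, where 5.25% of all genes were, so the count lies near that share.

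Among signalling and feedback genes, Tnfaip3, the NF-kappaB inhibitor A20, had the largest ratio. With TNFα it read 5.69 and 4.98 (adjusted p = 7.56e-10), and it was the only 1 of 8 tested called higher there (5.25% of all genes). Socs3, the feedback inhibitor of gp130 signalling, was higher with anisomycin (mean 0.97, adjusted p = 0.000131) and 2 h of NaCl (1.06 and 0.86, adjusted p = 8.46e-05). Cish was lower at 8 h of NaCl (-1.60 and -0.76, adjusted p = 0.0102). Of the genes that act on AU-rich mRNAs, Zfp36, which promotes their decay, was higher with TNFα (2.62 and 3.55, adjusted p = 1.39e-08), NaCl for 45 min (1.41 and 1.38, adjusted p = 0.000352) and NaCl for 2 h (2.41 and 1.92, adjusted p = 1.97e-06). Zfp36l1 was higher in all 5 WT stress groups, from a mean of 0.94 at 8 h of NaCl to 2.28 and 2.31 on the arrays at 2 h. Tia1 was lower at 8 h of NaCl (-0.86 and -1.23, adjusted p = 1.00e-05). In that list, 2 of 5 tested were called higher with TNFα (5.25% of all genes), with a list median of 0.52 beside 0.00 over all genes.

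The profile of Csf1 over the 15 group means was close to that of Olr1 (Pearson r = 0.95). The most like profiles were those of Apbb2 (r = 0.92) and Ankrd17 (r = 0.92) for Spp1, and those of Treml4 (r = 0.86) and Creg2 (r = 0.84) for Tslp, among 10458 genes measured in all groups. Olr1 averaged 2.67 in WT MEFs with TNFα. Between members, r was 0.50 for Csf1 with Tslp, 0.08 for Csf1 with Spp1 and 0.12 for Tslp with Spp1. For the members near 0 the most like genes were 4833403I15Rik (r = 0.82) and Scrt1 (r = 0.80) for Il6, LOC434232 (r = 0.84) and Jph4 (r = 0.83) for Csf2, and Tlr3 (r = 0.78) and mt-Cytb (r = 0.77) for Csf3. These values are descriptions: all groups share the same pool and dye orientation.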

How the data were processed

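Total RNA of 30 cultures was measured on 2-colour arrays. The authors extracted spots with Agilent Feature Extraction (version 9.1 per the submitters' processing notes and 8.1.1.1 per the headers). It detrended signals over the array, set surrogates for dim ones and normalized the dyes with a linear and then a LOWESS correction. The deposited log10 ratios of Cy5 to Cy3 were multiplied to log2, and the deposited intensity and background columns (also a linear scale) were used for signals and for an alternative. Deposited log2 values of the series table were a second alternative, its columns having medians from -0.06 to 0.03 and correlations with the array ratios of 0.84 to 0.97, so that it runs in the same direction. Outlier-flagged spots were left out and probes of a gene averaged.

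A limma fit (3.58.1, R 4.3.3) of 15 group means was moderated across genes, and p-values were Benjamini-Hochberg adjusted over genes measured on both arrays of the groups compared. The pool was the only untreated WT sample, so a test against 0 holds the spread of treated cultures alone. Named genes were the members, the genes of fixed pathway lists called in a WT stress group (at most 3 per list with the largest changes) and the 2 genes most like each member, of which 1 is not reported here. The members and lists were chosen with earlier results of these data known. Alternatives were flagged spots kept, normexp (offset 50) with loess, the series table, the brightest probe, a dim-probe filter, fewer arrays, each array left out, a 2.5-fold rule and a replicate block. Replicate numbers paired the arrays within a genotype, since deviations from group means correlated above 0.1 in 55 of 55 WT and 6 of 6 KO pairs, and in 6 of 44 pairs across genotypes; the titles number the experiments without naming a shared batch. Scanning days came from the file headers: 11 WT arrays on day 1, 11 WT and 4 KO arrays on day 2, 3 KO arrays on day 3 and 1 on day 4. The WT arrays of day 1 were all first arrays and those of day 2 all second arrays. Replicate number and scanning day thus cannot be told apart in WT MEFs. The number of arrays limits precision. Old gene names were matched through RefSeq.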

Additional observations from a re-analysis of the deposited data

Results flagged for a closer look

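In 3 cases the change under stress differed between an arm and WT MEFs when the replicate number was a block. Tslp changed 1.12 less with TNFα in KO MEFs (difference -1.12, the KO change over untreated KO MEFs less the WT ratio, adjusted p = 0.0223, and 0.0558 without the block). Tslp also changed 1.03 less with TNFα under SB203580 (difference -1.03, taken over SB203580 alone, adjusted p = 0.0251, and 0.0677 without). Spp1 changed 1.94 less after 8 h of NaCl under SB203580 (difference -1.94, adjusted p = 0.0153, and 0.153 without). The WT term is a ratio to the pool and carries any dye or pool offset of the probe, while the other term is a difference between 2 Cy5 groups and does not, so offset and response cannot be told apart in these differences. Both probes were above the pool on all 30 arrays. Compared directly under the same stress, the groups did not differ by a called amount (-0.21, -0.70 and -1.30).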

How the results depend on the processing

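Csf1 and Tslp with TNFα, Spp1 at 8 h of NaCl and its step from 2 h, and Tslp at 2 h of NaCl kept their direction and call under every alternative run, except that Tslp at 2 h (1.21) misses the 2.5-fold rule. With arrays left out in turn they ranged from 2.67 to 3.37, 1.24 to 1.66, 3.16 to 3.99, 2.34 to 3.17 and 0.95 to 1.48; a lone array was assumed to vary like the others.

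Counts of calls against the pool (21 higher and 9 lower in 15 groups) became 32 and 14 with the replicate block, 34 and 26 with the block and flagged spots kept (11.8% and 19.7% of gene tests), and 9 and 0 by the 2.5-fold rule (0.549% and 0.306%). The lower calls were 22 with flagged spots kept (16% of gene tests) and 18 in the series table (14.6%). Leaving out an array gave 19 to 23 and 7 to 11. KO against WT gave 1 call with scanning day as a term (1.58% of gene tests), 1 with flagged spots kept and the block (3.44%), and 0 to 2 without an array. Leaving out the first KO array with anisomycin gave Csf2 and Tnf, and the first with NaCl gave Il11. Stress within an arm gave 1 with normexp (1.58%), 2 in the series table (2.13%), 3 with the block, 2 with fewer arrays (1.43%), 3 with flagged spots kept and the block (2.66%), and 0 to 3 without an array. Differences in induction gave 4 with flagged spots kept (6.27%), 1 with normexp (1.56%), 4 in the series table (6.66%), 2 with the brightest probe (1.84%), 3 with the block, 1 with fewer arrays (0.489%), 14 with flagged spots kept and the block (11.8%), and 0 to 1 without an array. Between stresses or times (1 call) there were 2 with flagged spots kept (1.83%), 3 with normexp (2.13%), 3 in the series table (2.4%), 5 with the block, 2 with fewer arrays (2.06%), 7 with flagged spots kept and the block (2.85%), 3 by the 2.5-fold rule (0.532%) and 1 to 2 without an array. SB203580 against stress alone gave 0 under every test run. The block changed no other call than those given beside the results. Scanning day and the joint setting were added after the data were seen. Csf1 in KO against WT reversed with scanning day as a term under TNFα (0.17), and under NaCl without the first KO array (-0.48) or the second WT array (-0.01), over a range of -0.48 to 1.39; the cause was not tested.

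With 2 arrays per group and no untreated WT array, differences below the intervals given were not detectable, and Lif could not be tested in WT MEFs. Il6, Csf2 and Csf3 lay nearest to background.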
